A study of Arabidopsis thaliana with 18 samples.

Results

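Starch in leaves is broken down by a small set of enzymes, and 10 Arabidopsis thaliana genes of that set are described here: SEX1 (AT1G10760), SEX4 (AT3G52180), LSF1 (AT3G01510), AMY3 (AT1G69830), BAM3 (AT4G17090), BAM5 (AT4G15210), DPE1 (AT5G64860), PHS1 (AT3G29320), DPE2 (AT2G40840) and PHS2 (AT3G46970). They were found by locus in the platform annotation, where each of the 10 had 1 probe set that matches 1 gene, out of 22810 probe sets on the Affymetrix ATH1 array and 22591 with a locus. The 10 genes were selected on their signals across all 18 arrays, so their differences between groups are given as a description and no p-value is attached to them. All 10 passed the filter on low signals, which kept 14823 probe sets.

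The arrays carried RNA of leaves, 1 sample per array, in 6 groups of 3 arrays lettered A, B and C. The wild type was Col-0, and the other genotype, here OE, over-expresses StZFP2, a zinc finger protein gene of potato. Per the sample labels each OE sample pooled 2 lines, OEEV47-1 and OEEV47-2, whereas the design text lists the lines apart. Neither the promoter of the transgene nor the age of the plants is stated there. Leaves of each genotype were unwounded (control), or were taken 1 h or 6 h after wounding. The study asked how over-expression of StZFP2 alters the wound response. The labels do not say whether A, B and C came from separate plants, so p-values reflect only how far these samples scatter, and that scatter may be technical. The potato transgene was not measured and could not be used to check the labels.

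Leaf starch is made in chloroplasts by day and broken down at night. The kinase SEX1 (glucan, water dikinase) adds phosphate to glucans at the granule surface, which opens them to amylases, and the phosphatase SEX4 removes it again. Beta-amylases then release maltose, which leaves the chloroplast through the transporter MEX1 and is used in the cytosol by the transglucosidase DPE2 and the phosphorylase PHS2. Transcripts of several of these genes are known to cycle over day and night.

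Some arrays labelled OE stood nearest to arrays of another treatment label, and this bears on each result for OE. Across the kept probe sets without the 10 genes, each Col-0 array correlated best with another array of its own group. Those labelled OE control A and B and OE 6 h C had each other as nearest arrays (Pearson r across probe sets up to 0.983), and with Col-0 they correlated at 0.961 to 0.971 at 6 h but at 0.876 to 0.893 when unwounded. Nearest for OE control C was the array labelled OE 1 h A (0.974), and for OE 1 h C the array labelled OE 6 h B (0.978). Such an r runs across probe sets, which are no independent replicates, and describes the arrays alone. The arrays labelled OE 6 h A and B correlated at 0.953 to 0.971 with Col-0 1 h and at 0.887 to 0.894 with Col-0 6 h. With unwounded Col-0 they correlated at 0.939 to 0.963, a range that overlaps the one with 1 h. Which of the OE arrays carry the treatment on their label cannot be told from these values. Groups were kept as labelled, and values for OE are given with and without the 3 arrays lettered C, which leaves arrays A and B of each label nearer to each other but does not settle their treatment. Array medians ranged from 127.5 to 161.1 in signal. The ratio of 3′ to 5′ actin signal, a sign of RNA integrity, was 23.4 to 45.0 in Col-0 leaves at 1 h and 15.1 to 27.5 on the other 15 arrays. The leaf markers RBCS1A, CAB3 and RCA summed to between 90686 and 118574 on every array. Of the flower markers AP1 and AP3 did not pass the filter, and AG did.

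In Col-0 leaves 6 h after wounding, transcripts of 9 of the 10 genes were above the unwounded level and that of BAM3, the main beta-amylase of leaf chloroplasts, was below it. The rise ranged from 1.62-fold for LSF1 to 16.3-fold for PHS2. For all 10 genes the 3 arrays at 6 h lay wholly outside the range of the 3 unwounded arrays, as 42.6% of all 14823 probe sets also did. Levels on an array are relative to the whole RNA of a sample, so fewer cells of a type and less RNA per cell cannot be told apart.

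**Figure D1:**
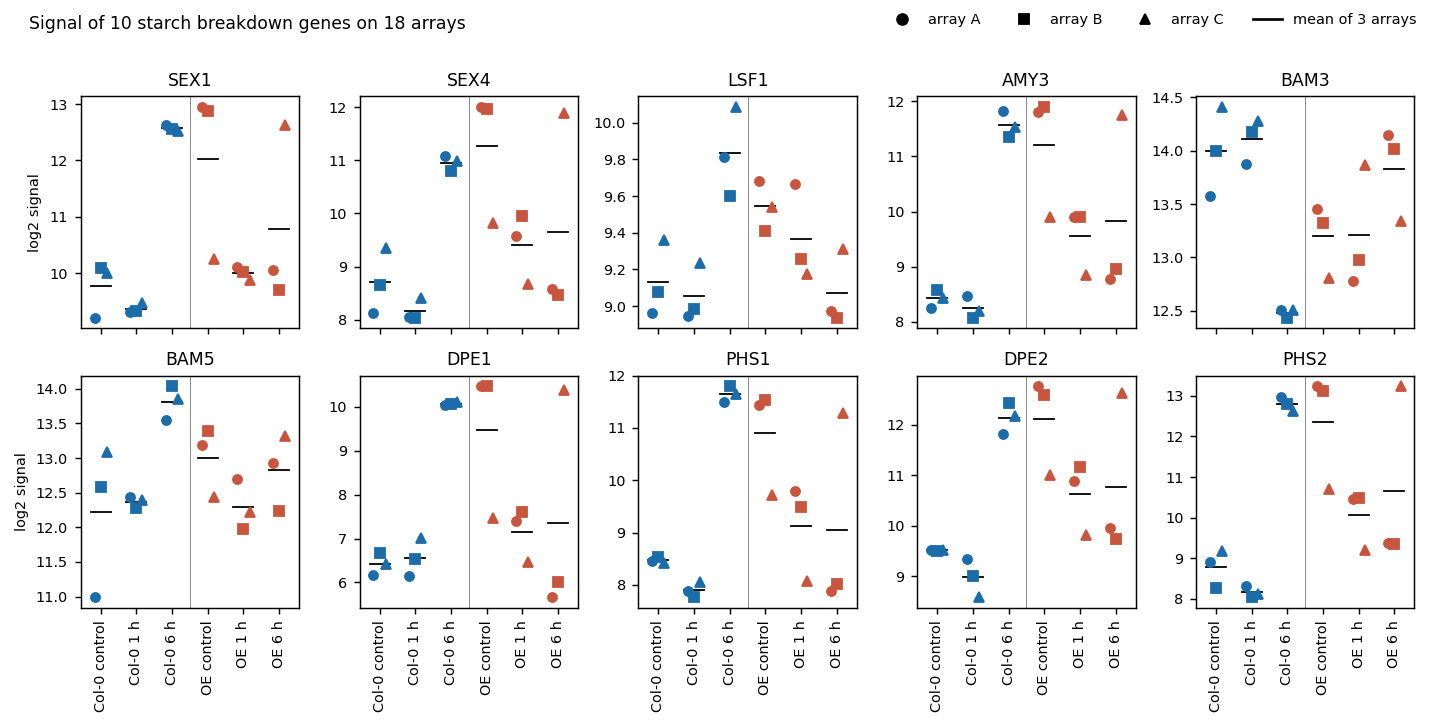
Log2 signal of each of the 10 genes on the 18 arrays, by labelled group (Col-0 in blue, OE in red); symbols give the array letter and the horizontal bar the mean of 3 arrays. The Col-0 6 h arrays stand above the Col-0 control arrays for 9 genes and below them for BAM3, and within OE control and OE 6 h the array lettered C stands apart from A and B for most genes.

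The enzymes that add and remove phosphate on glucans came first in the pathway. The signal of SEX1 was 589, 1088 and 1023 in unwounded Col-0 leaves (arrays A, B and C, as in all lists of signals here) and 6330.2, 6042 and 5896 at 6 h, a log2 difference of 2.81 ± 0.67 (SE from the limma fit of 18 arrays, n = 3 arrays a group, here and below). The 6 h arrays were close together and each stood above the highest unwounded array. SEX4, the phosphoglucan phosphatase, gave 277, 401 and 649 unwounded and 2158, 1779 and 2041 at 6 h (2.25 ± 0.73). LSF1, a protein like SEX4 that also acts in starch breakdown, gave 498, 541 and 658 unwounded and 899.6, 776 and 1087 at 6 h (0.70 ± 0.17). LSF1 moved least of the 10, and its lowest 6 h array stood only a little above its highest unwounded array.

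Of the amylases, AMY3 and BAM5 rose and BAM3 fell. AMY3 encodes the chloroplast alpha-amylase, which cuts inside glucan chains, and its signal went from 306, 384 and 348 unwounded to 3615, 2609 and 2955 at 6 h, or 8.80-fold (3.14 ± 0.63 in log2). BAM3, which cuts maltose from chain ends, gave 12238, 16371 and 21787 unwounded and 5800.1, 5521 and 5802 at 6 h (-1.52 ± 0.28). The unwounded arrays of BAM3 were spread widely and all lay above the tightly grouped 6 h arrays. BAM5, a beta-amylase outside the chloroplast that is linked to phloem, gave 2038, 6104 and 8716 unwounded and 12004, 16822 and 14738 at 6 h (1.59 ± 0.41). Its unwounded array A was far below B and C, and without that array the log2 difference of BAM5 was 0.98 ± 0.32.

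The remaining plastid enzymes act on short and long glucans. DPE1, which rearranges maltotriose and other short chains, gave 72.2, 102 and 85.7 unwounded and 1056, 1064 and 1107 at 6 h (3.65 ± 0.95). Its unwounded signals were dim, between the 37.3 and 44.2 percentiles of their arrays, and its 6 h signals were at percentiles of 85.6 to 86.2. PHS1, the plastid glucan phosphorylase, gave 350.2, 369 and 343 unwounded and 2879, 3563 and 3217 at 6 h (3.18 ± 0.70). The unwounded arrays of PHS1 differed little from each other, and so did those at 6 h.

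In the cytosol, both enzymes that act downstream of maltose export rose. DPE2 transfers a glucose unit from maltose to a soluble glucan, and its signal was 735, 729 and 732 unwounded and 3598, 5494 and 4579 at 6 h, 6.14-fold higher (2.62 ± 0.61 in log2). PHS2, the cytosolic phosphorylase that acts on such glucans, gave 475, 306 and 577 unwounded and 8007, 7134 and 6342 at 6 h (4.03 ± 0.82). PHS2 had the highest fold of the 10 genes, and its 6 h arrays stood far above its unwounded ones.

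By the threshold of the fit (limma, Benjamini-Hochberg adjusted p below 0.05 over all probe sets) 9 of the 10 genes rose and 1 fell at 6 h, where 15.9% of all probe sets were called. The signals that chose the genes include this contrast, so nothing is read from that count. The median log2 difference was 2.71 over the 10 genes and 0.04 over all probe sets. The count of 10 was 6 without Col-0 control A, 5 without Col-0 6 h A, 4 without Col-0 6 h B and 6 without Col-0 6 h C, while all 10 signs stayed. In a fit of the 9 Col-0 arrays alone all 10 were called, where 29.0% of probe sets were, and the SE of SEX1 was 0.20 and that of PHS2 0.20.

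The 6 h leaves differed from the unwounded ones also in clock genes. The morning genes LHY, CCA1 and RVE8 fell by 3.77, 1.84 and 2.01 in log2 (limma adjusted p = 0.0123, 0.0276 and 0.0274). PRR7, which is expressed by day, rose by 1.93 ± 0.34 (limma adjusted p = 0.00873), and GI by 1.90 ± 0.61 (limma adjusted p = 0.0441). PRR5 was at least 8.72-fold higher (limma adjusted p = 0.0123), a bound because every unwounded array had it under its own 40th percentile. In all 6 of 10 listed clock genes were called in the fit of 18 arrays, where 15.9% of probe sets were. With only the Col-0 arrays fitted, ELF4, LUX and TOC1 were called higher too (limma adjusted p = 0.00045, 0.00021 and 0.00133). PRR9 alone was not called there, and 29.0% of probe sets were. ELF4 and LUX were under the 40th percentile on every unwounded array. There is no unwounded group at 6 h in the labels, nor an hour of sampling, so wounding and time of day cannot be told apart for the starch genes. Among markers of other cells, the guard cell gene KAT1 rose by 1.26 ± 0.30 and GC1 fell by 0.80 (limma adjusted p = 0.0171 and 0.0345), and 2 of 4 guard cell markers were called. The summed guard cell signal was 2395 to 3461 unwounded and 2167 to 2621 at 6 h. Of 5 phloem markers AHA3 alone rose (0.50 ± 0.16, limma adjusted p = 0.0456), and their summed signal was 10963 to 12475 unwounded and 12661 to 14672 at 6 h. Of 3 root markers 2 were measured, and their summed signal was 21.1 to 168.5 unwounded and 161.5 to 1115 at 6 h. The root gene PYK10 gave 159, 17.6 and 48.5 unwounded and 1112, 158 and 404 at 6 h (3.01 ± 1.29), which was not called in the fit of 18 arrays and was called with only the Col-0 arrays fitted (limma adjusted p = 0.00989), and MRN1 did not pass the filter. No marker was at 0, and the part of other cells in the result was not tested.

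**Figure D2:**
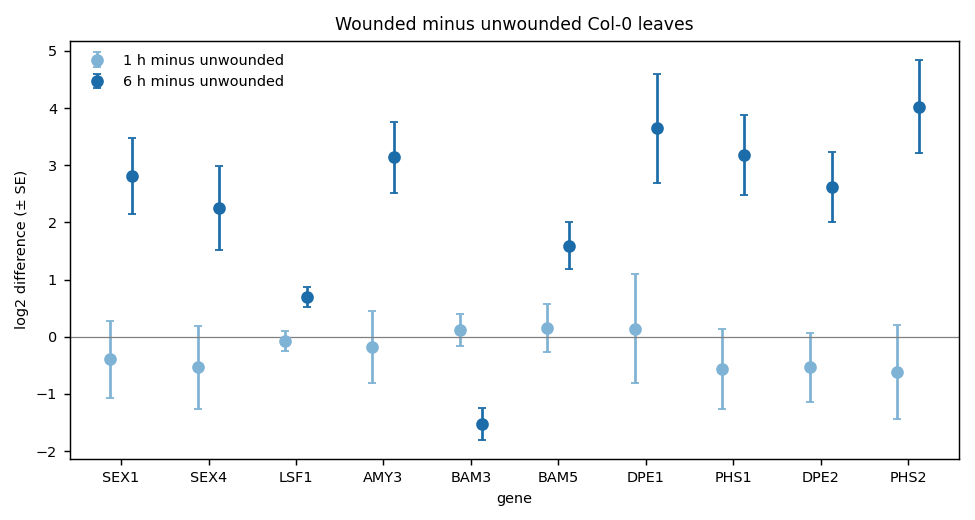
Log2 difference of each of the 10 genes from unwounded Col-0 leaves at 1 h (light) and 6 h (dark); bars are the SE of the limma fit of 18 arrays, 3 arrays a group. At 1 h the values lie between -0.62 and 0.15, and at 6 h they reach from -1.52 for BAM3 to 4.03 for PHS2.

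At 1 h after wounding each of the 10 genes differed less from the unwounded level in Col-0 than at 6 h. The differences ran from -0.62 for PHS2 to 0.15 for BAM5 on the log2 scale, with a median of -0.29 against -0.09 over all probe sets. For 8 of the 10 the arrays of both groups overlapped. DPE2 gave 649, 516 and 385 at 1 h, below all 3 of its closely grouped unwounded signals (-0.53 ± 0.61). PHS1 gave 236, 218 and 267, also below the unwounded arrays (-0.56 ± 0.70). These were the 2 genes whose groups did not overlap, where 24.7% of all probe sets did not.

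The other signals at 1 h overlapped the unwounded range. SEX1 gave 633, 642 and 708, SEX4 266, 261 and 340.3 and LSF1 492, 507 and 602. For AMY3 the signals were 356, 269 and 293, for BAM3 14991, 18453 and 19924 and for BAM5 5568, 4983 and 5360.3. DPE1 stayed dim at 70.6, 92.5 and 129, and PHS2 gave 316, 263 and 278. In the fit of 18 arrays 0 of the 10 genes were called at 1 h, as were 0.027% of all probe sets (4 by limma with Benjamini-Hochberg adjustment, 2103 at an unadjusted p below 0.05). With only the Col-0 arrays fitted PHS1 was called (-0.56 ± 0.14), where 5.84% of probe sets were. The SE of DPE2 was 0.19 in that fit and 0.61 in the fit of 18 arrays, whose spread includes the OE arrays. The actin 3′ to 5′ ratio was 16.2 to 23.9 in the unwounded and 23.4 to 45.0 in the 1 h leaves, and its part in these values was not tested.

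From 1 h to 6 h in Col-0 the same directions were seen as from the unwounded leaves, and the comparison shares its 6 h arrays with the one above. PHS2 was higher by 4.65 in log2 at 6 h than at 1 h. PHS1 was 13.4-fold higher, DPE1 11.4-fold and AMY3 9.96-fold. SEX1, DPE2 and SEX4 were 9.22-fold, 8.89-fold and 6.92-fold higher. BAM5 and LSF1 moved least upward, by 1.44 and 0.78 in log2, and BAM3 fell by 1.63. For all 10 genes the arrays did not overlap, as for 56.1% of probe sets. The fit called 9 higher and 1 lower, where 36.4% of all probe sets were called, and so did the Col-0 arrays fitted alone, where 42.7% were.

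On the arrays labelled OE, most of the 10 genes differed widely between arrays of 1 labelled treatment. For SEX1, SEX4, AMY3, BAM5, DPE1, PHS1, DPE2 and PHS2 the 6 highest signals of all 18 arrays were those of the 3 Col-0 6 h arrays and of the arrays labelled OE control A, OE control B and OE 6 h C. LSF1 and BAM3 did not show this order. Those 6 arrays also correlated with each other at 0.961 to 0.983 across the kept probe sets without the 10 genes. How many other probe sets show the order was not counted, so it is not given as particular to these genes. By mean log2 signal Col-0 6 h was the highest of the 6 groups for 8 genes, OE control was for SEX4, and for BAM3 Col-0 6 h was the lowest. Of the 5 pairs of neighbours in that order of groups, between 3 and 5 overlapped for each gene. The groups were sorted by mean first, and OE control and OE 6 h hold arrays far apart for most genes. Overlap of neighbours therefore does not show that groups are alike.

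**Figure D3:**
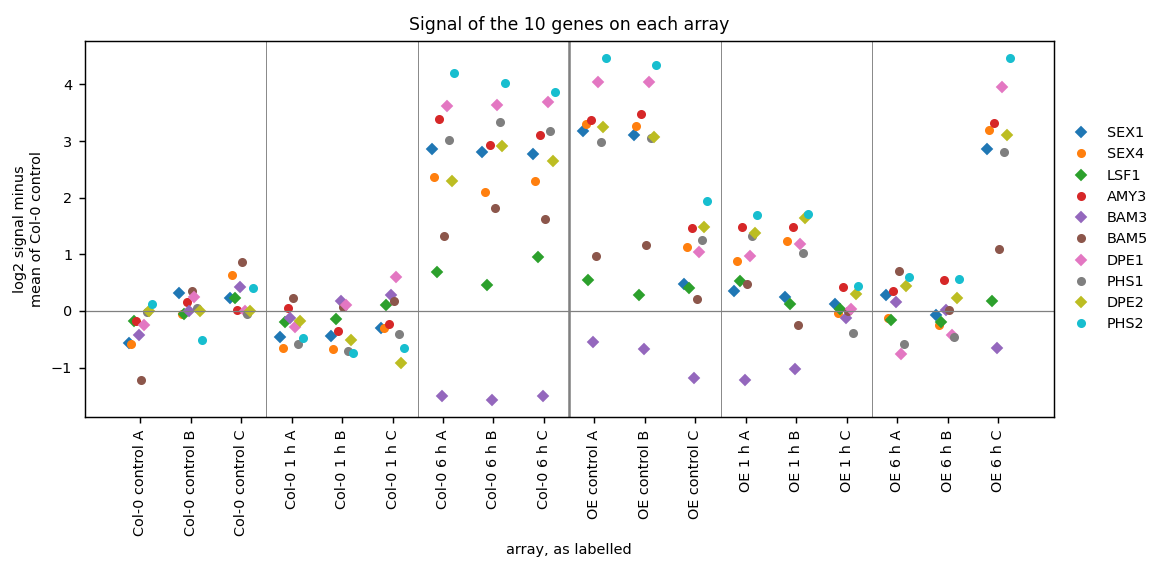
Log2 signal of each of the 10 genes on each array, minus the mean of the 3 Col-0 control arrays for that gene; arrays stand in the order of their labels. The arrays labelled OE control A, OE control B and OE 6 h C carry values near those of the Col-0 6 h arrays for most genes, and BAM3 is lowest on the Col-0 6 h arrays.

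The glucan kinase and phosphatases varied as follows on the arrays labelled OE. SEX1 gave 7904, 7521 and 1216 in the controls, 1104, 1035 and 943 at 1 h and 1061, 830.3 and 6296 at 6 h. Control C and the 6 h arrays A and B were near the Col-0 control range, and the other arrays of those groups at or above the Col-0 6 h range. SEX4 gave 4125, 4000.3 and 909 in the controls, 763, 985 and 408 at 1 h and 382, 353 and 3832 at 6 h. Control A, control B and 6 h C were above every Col-0 array for SEX4. LSF1 gave 820.3, 681 and 746 in the controls, 814, 613 and 578 at 1 h and 502, 489.8 and 636 at 6 h. Its range over all 18 arrays was 2.22-fold, the narrowest of the 10 genes.

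The amylase AMY3 was high on 3 of these arrays. Its signal was 3575, 3817 and 956 in the controls, 961, 958 and 462 at 1 h and 442, 501 and 3452 at 6 h. No array labelled OE was as low in AMY3 as the highest Col-0 control array. BAM3 gave 11248, 10271 and 7161 in the controls, 7001, 8064 and 14910.2 at 1 h and 18134, 16559 and 10346 at 6 h. For BAM3 the lowest arrays were control C and 1 h A and B, which still stood above all 3 Col-0 6 h arrays. BAM5 gave 9317, 10719 and 5538 in the controls, 6658, 4036 and 4759 at 1 h and 7814, 4844 and 10200.3 at 6 h, and none of these 9 arrays reached the lowest Col-0 6 h array.

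The plastid enzymes DPE1 and PHS1 were also high on OE control A and B and OE 6 h C. DPE1 gave 1421, 1416 and 176 in the controls, 168, 195 and 87.8 at 1 h and 50.8, 64.3 and 1336 at 6 h. On the 6 h arrays A and B it ranked under the 40th percentile, so DPE1 was dim there, while 6 h C was among the highest of all arrays. PHS1 gave 2778, 2946 and 842 in the controls, 884, 718 and 269.6 at 1 h and 235, 258 and 2484 at 6 h.

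The cytosolic enzymes were high on the same 3 arrays. DPE2 gave 6937, 6174 and 2047 in the controls, 1902, 2275 and 902 at 1 h and 998, 853 and 6293 at 6 h, and every one of these arrays was above all Col-0 control and 1 h arrays. PHS2 gave 9637, 8847 and 1677 in the controls, 1418, 1429 and 591 at 1 h and 665, 648 and 9688 at 6 h. Over all 18 arrays the range of PHS2 was 36.8-fold. The lowest array labelled OE stood above the highest Col-0 control array for both genes.

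Over all treatments the mean log2 signal of the arrays labelled OE differed from Col-0 by 1.11 ± 0.47 for PHS2, 0.96 ± 0.35 for DPE2, 0.83 ± 0.42 for SEX4 and 0.78 ± 0.36 for AMY3. For SEX1 it was 0.37 ± 0.39, for PHS1 0.35 ± 0.40 and for DPE1 0.30 ± 0.55, and for BAM3, BAM5 and LSF1 it lay between -0.12 and -0.01. This mean over 9 arrays a genotype is the same whichever treatment each array labelled OE had, but its error is not. The 9 and 9 arrays overlapped for all 10 genes. How many other probe sets overlapped was not counted, so nothing is read from that. In the fit 0 of the 10 were called, where 4.84% of probe sets were (717 by limma with adjustment, 3366 at an unadjusted p below 0.05). Without the arrays lettered C, AMY3, DPE2, PHS1, PHS2, SEX1 and SEX4 rose, by 0.35 ± 0.08 for PHS1 to 1.09 ± 0.12 for PHS2, where 15.7% of probe sets were called. Without OE control C alone, DPE2 was called. The guard cell markers KAT1 (0.63 ± 0.17, limma adjusted p = 0.0464) and MYB60 (0.45 ± 0.09, limma adjusted p = 0.0121) were also higher on the arrays labelled OE. FAMA and GC1 were not called. The summed signal of the 4 was 2460.7 to 3060.5 in OE control and 2395 to 3461 in Col-0 control. At 1 h it was 2934 to 3063 in OE and 2532 to 2949 in Col-0, and at 6 h 2548 to 3193 and 2167 to 2621. The part of these markers in the result was not tested.

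In the controls, PHS2 rose by 3.58 ± 0.82, AMY3 by 2.77 ± 0.63, DPE2 by 2.60 ± 0.61, SEX4 by 2.57 ± 0.73, PHS1 by 2.43 ± 0.70 and SEX1 by 2.26 ± 0.67 on the arrays labelled OE. These 6 were called, where 10.4% of probe sets were, and 9 of 10 genes did not overlap between the groups, where 32.0% of probe sets did not. DPE1 (3.04 ± 0.95), BAM5 (0.78 ± 0.41), LSF1 (0.41 ± 0.17) and BAM3 (-0.80 ± 0.28) were not called. The count of 6 rested on single arrays. It was 0 without any one of the Col-0 control arrays or of OE control A or B, and 3 without any one of the other Col-0 arrays. Without the arrays lettered C the fit called 7 higher and 1 lower, where 35.3% of probe sets were called, and the value for DPE1 was 4.05 ± 0.22. The arrays kept, OE control A and B, correlated at 0.964 to 0.971 with Col-0 6 h, so that fit does not settle their treatment.

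At 1 h BAM3 alone passed in the fit of all arrays, and it fell by 0.90 on the log2 scale (14991, 18453 and 19924 in Col-0 against 7001, 8064 and 14910.2 in OE). Array C of OE stood just below the lowest Col-0 array and A and B far below it. The share of all probe sets called was 11.1%, and 7 of 10 genes did not overlap, where 36.1% of probe sets did not. The others lay between -0.07 for BAM5 and 1.90 for PHS2. The call of BAM3 was lost without any one of Col-0 control B, the Col-0 1 h arrays, the Col-0 6 h arrays, OE control A or B, OE 1 h A or B, or OE 6 h B. Without OE 1 h C 2 genes were called and without OE 6 h C 4, BAM3 and DPE2 among them each time. Without the arrays lettered C, AMY3 (1.66 ± 0.16), DPE1, DPE2, PHS1, PHS2 (2.32 ± 0.20), SEX1 and SEX4 rose and BAM3 fell by 1.23, where 32.2% of probe sets were called. The OE 1 h arrays kept there, A and B, correlated at 0.8876 to 0.9105 with Col-0 1 h. With unwounded Col-0 they correlated at 0.9305 to 0.9449, so that fit does not settle their treatment. Among markers of other cells KAT1 rose by 1.21 ± 0.30 at 1 h and 1.21 ± 0.30 in the controls (limma adjusted p = 0.0211 and 0.026), with 1 of 4 guard cell markers called each time. The flower gene AG was called at 1 h (at least 1.04-fold higher, limma adjusted p = 0.039), a bound because it was under the 40th percentile on all 3 Col-0 arrays. The 3 flower markers summed to 46.4 to 79.4 in Col-0 and 76.8 to 171 in OE there, and the part of these markers was not tested.

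At 6 h BAM3 rose by 1.35 ± 0.28 and LSF1 fell by 0.76 on the arrays labelled OE, where 1.06% of probe sets were called. For 4 of 10 genes the groups did not overlap, where 23.0% of probe sets did not. The other 8 lay between -2.72 for DPE1 and -0.98 for BAM5, with SEs of up to 0.95, and in each of them array C stood above A and B. Without the arrays lettered C, BAM3 rose by 1.60 ± 0.19 and 9 genes fell, where 34.1% of probe sets were called. The OE 6 h arrays kept there, A and B, correlated at 0.953 to 0.971 with Col-0 1 h, at 0.939 to 0.963 with unwounded Col-0 and at 0.887 to 0.894 with Col-0 6 h. Their treatment is thus in doubt, and the smaller SEs do not make these values firmer as effects of genotype. LSF1 fell by 0.88, PHS2 fell by 3.44 and PHS1 fell by 3.70 on the log2 scale, and DPE1 was at least 14.3-fold lower, a bound because it ranked under the 40th percentile on both OE arrays kept. The count of 2 became 9 without OE 6 h C alone and 0 without any one of OE 6 h A or B, the Col-0 6 h arrays, the Col-0 1 h arrays, Col-0 control B or OE control B. It was 1 without any one of Col-0 control A or C, OE control A or OE 1 h B.

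The wound response at 6 h, OE minus Col-0, was called for all 10 genes, where 23.3% of probe sets were called. It was -5.76 ± 1.34 for DPE1, -5.72 ± 1.16 for PHS2 and 2.15 ± 0.40 for BAM3 on the log2 scale. The 9 genes that were higher at 6 h than in the controls in Col-0 had lower means in OE 6 h than in OE control as labelled, and the arrays that stood nearest to another label enter this difference. Without the arrays lettered C all 10 were again called at 6 h, where 46.6% of probe sets were, with PHS2 at -7.84 ± 0.28 and BAM3 at 2.21 ± 0.26. That fit sets OE 6 h A and B, which were nearer to Col-0 1 h than to Col-0 6 h, against OE control A and B, which were nearest in Col-0 to 6 h. Markers of other cells were called in this difference too, namely PYK10 (-5.26 ± 1.82), KAT1 (-1.75 ± 0.42), AHA3 (-0.70 ± 0.23) and GC1 (1.07 ± 0.34), at limma adjusted p = 0.0473, 0.0128, 0.0378 and 0.0332. These were 1 of 1 root, 2 of 4 guard cell and 1 of 5 phloem markers tested, and their part was not tested. The summed root signal was 70.4 to 245 in OE control and 9.09 to 235 in OE 6 h. Of the listed clock genes, LHY (5.18 ± 1.10), RVE8 (2.94 ± 0.79) and CCA1 (2.67 ± 0.72) were called too (limma adjusted p = 0.00972, 0.0179 and 0.0185). PRR7 (-2.72 ± 0.48), GI (-2.68 ± 0.86) and PRR5 were called in the other direction (limma adjusted p = 0.00924, 0.0358 and 0.0111). At 1 h the same difference was called for 0 of the 10 genes and for 0.0% of probe sets (0 by limma with adjustment, 1497 at an unadjusted p below 0.05). Without the arrays lettered C, 7 genes had a lower response at 1 h on the arrays labelled OE, all but BAM3, BAM5 and LSF1, where 15.7% of probe sets were called. That fit sets OE 1 h A and B against OE control A and B. In Col-0 the former were nearer to unwounded leaves than to 1 h, and the latter were nearest to 6 h. The treatment of these arrays is thus in doubt.

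Other genes of starch breakdown moved in both directions. Of 16 measured, 2 rose and 3 fell in Col-0 at 6 h, and their median log2 difference was 0.60 against 0.04 over all probe sets. GLT1, the glucose transporter of the plastid envelope, gave 1268, 1382 and 1117 unwounded and 2351, 2378 and 2304 at 6 h (0.91 ± 0.25, limma adjusted p = 0.0285). LSF2, a phosphoglucan phosphatase, also rose (0.90 ± 0.26, limma adjusted p = 0.0318). BAM9, of the beta-amylase family, fell by 3.07, from 1698, 2063 and 1625 to 261, 171 and 214 (limma adjusted p = 0.011). BAM1, a chloroplast beta-amylase, fell by 1.32 (limma adjusted p = 0.0317) and the alpha-amylase AMY2 by 0.81 (limma adjusted p = 0.0306). With only the Col-0 arrays fitted these genes were called again, where 29.0% of probe sets were. In that fit ISA3, PWD, MEX1, LDA and BAM4 were called higher too, and BAM2 lower. The count over breakdown and synthesis genes, 12 in all, was 6 without Col-0 control A, 5 without Col-0 control B and 3 without any one of Col-0 control C or the 6 h arrays.

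Some steps next to those of the 10 genes missed the threshold against the unwounded leaves and passed against 1 h. ISA3, a debranching enzyme, gave 101, 123 and 150.4 unwounded, 69.8, 86.5 and 109.7 at 1 h and 761, 831 and 742 at 6 h (3.16 ± 1.03 from 1 h to 6 h, limma adjusted p = 0.0268). PWD, the second glucan dikinase, gave 719, 634 and 662, 484, 488 and 478 and 2077, 1603 and 1885 in that order (1.93 ± 0.59, limma adjusted p = 0.0196). MEX1 gave 909, 874 and 1245, 1007, 836 and 882 and 2134, 1673 and 1843 (1.05 ± 0.35, limma adjusted p = 0.0285). In each the 6 h arrays were above all others of Col-0. With only the Col-0 arrays fitted, ISA3, PWD and MEX1 were called against the unwounded leaves, where 29.0% of probe sets were. ISA3 rose there by 2.66 ± 0.20, PWD by 1.46 ± 0.13 and MEX1 by 0.91 ± 0.16 (limma adjusted p = 2.95e-06, 1.02e-05 and 0.00121). From 1 h to 6 h 5 of the 16 rose, with LSF2 (limma adjusted p = 0.00244) and GLT1 (limma adjusted p = 0.00384), and BAM1, BAM9 and AMY2 fell (limma adjusted p = 0.00509, 0.00652 and 0.00677). That comparison called 36.4% of all probe sets.

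Of 17 listed genes of starch synthesis 16 passed the filter, and 6 rose and 1 fell in Col-0 at 6 h. GBSS1, the granule-bound starch synthase that makes amylose, fell by 3.00, from 13596, 14241 and 17664 to 1994, 1479 and 2262 (limma adjusted p = 0.0119). SS4, a starch synthase that acts in granule initiation, rose by 1.77 ± 0.48 (limma adjusted p = 0.0264) and PTST1, which brings GBSS1 to the granule, by 1.57 ± 0.25 (limma adjusted p = 0.00565). The debranching enzyme subunits ISA1 (1.20 ± 0.30, limma adjusted p = 0.019) and ISA2 (0.97 ± 0.28, limma adjusted p = 0.0328) rose too. PGM1, the plastid phosphoglucomutase, rose by 0.94 ± 0.29 (limma adjusted p = 0.0403) and the starch synthase SS1 by 0.44 ± 0.13 (limma adjusted p = 0.0318). From 1 h to 6 h 8 of 16 rose, with SBE2.2, PGI1 and APL2 (limma adjusted p = 0.0139, 0.0259 and 0.0289) and without PGM1, and GBSS1 again fell (limma adjusted p = 0.00222). At 1 h against unwounded leaves 0 of the 32 genes of both lists were called, with 1 at an unadjusted p below 0.05 by limma, and 0 were called with only the Col-0 arrays fitted.

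**Figure D4:**
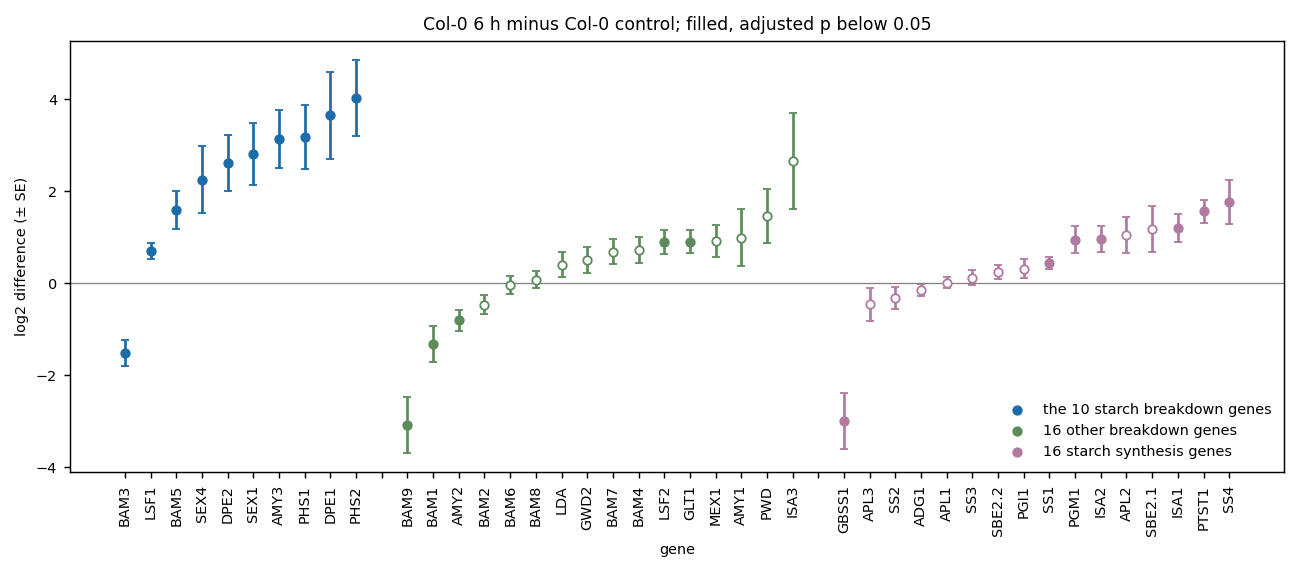
Log2 difference between Col-0 leaves at 6 h and unwounded Col-0 leaves for the 10 genes, 16 other breakdown genes and 16 synthesis genes, ordered by value within each list; bars are SE (limma, 18 arrays) and filled points passed an adjusted p of 0.05. The 10 genes span -1.52 to 4.03, the other breakdown genes reach down to -3.07 for BAM9 and the synthesis genes to -3.00 for GBSS1.

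On the arrays labelled OE control, BAM9, BAM1 and BAM2 fell by 3.38, 1.29 and 0.71 against Col-0 control (limma adjusted p = 0.0115, 0.0448 and 0.0458) and BAM4 rose by 0.95 ± 0.28 (limma adjusted p = 0.0423). PTST1 and ISA1 rose by 1.46 ± 0.25 and 1.35 ± 0.30 and GBSS1 fell by 2.38 (limma adjusted p = 0.0112, 0.0223 and 0.0301). Against Col-0, 10.4% of all probe sets were called in the controls, 11.1% at 1 h, 1.06% at 6 h and 4.84% over all treatments. At 1 h PTST1, ISA1 and APL3 rose on the arrays labelled OE (limma adjusted p = 0.0139, 0.0267 and 0.0348), and 0 of the 16 other breakdown genes were called (limma; 3 at an unadjusted p below 0.05). The count over both lists at 1 h, 3 in all, was 0 without any one of Col-0 1 h B or C or OE 1 h A or B, 7 without OE 1 h C and 5 without OE 6 h C. That in the controls, 7 in all, was 2 without any one Col-0 control array, 0 without OE control A or B, 16 without OE control C or OE 6 h C, and 4 without any one of Col-0 1 h A or C or the Col-0 6 h arrays. PTST1 was the only starch gene beside the 10 called over all treatments (0.71 ± 0.14, limma adjusted p = 0.0115). That count of 1 was 3 without any one of Col-0 control C, OE control C or OE 6 h B, and 2 without OE 1 h C or OE 6 h C. At 6 h 0 of the 32 were called in the limma fit of all arrays (15 at an unadjusted p below 0.05), 21 without OE 6 h C alone and 23 without the arrays lettered C.

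The genes with the most similar profile were taken as those with the highest Pearson r of log2 signal over the 18 arrays. The arrays fall into sets that share levels of many genes, and each r is a description over arrays that share that split. PHS2 was closest to AT3G01310 (0.994), AMY3 to AT4G30660 (0.993) and DPE1 to the beta-glucosidase gene BGLU44 (0.989). SEX1 was closest to POP2 (0.990), a GABA transaminase gene, DPE2 to AT5G43440 (0.987), PHS1 to PORB (0.986), which acts in chlorophyll synthesis, and SEX4 to the phosphofructokinase gene PFK7 (0.986). The best values of BAM5, BAM3 and LSF1 were lower, at 0.936 with the potassium channel gene GORK for BAM5, 0.934 with the kinase gene CIPK12 for BAM3 and 0.919 with AT5G54090 for LSF1. In the authors' platform annotation the term starch catabolic process stood beside 8 of the 10 genes, all but PHS1 and PHS2, and beside 0.0944% of the 14823 probe sets. The term chloroplast stood beside 8, all but BAM5 and DPE2, and beside 17.1% of probe sets, and the term circadian rhythm beside 0 of the 10 and 0.344% of probe sets.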

How the data were processed

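Leaf RNA was measured on 18 Affymetrix ATH1 arrays with 1 colour. Deposited were linear signal intensity values that the authors made with MAS5, per the submitters' processing notes, in a version not given in the sources used here. With 2% trimmed at each end, every array had a mean of 500. A further 90 columns of values per array were not used, because their names do not state the sample.

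Signals were taken to log2 as deposited. Probe sets that reached the 40th percentile on fewer than 3 of the 18 arrays were dropped, and 14823 stayed. With limma 3.58.1 (R 4.3.3), a model of 1 mean per group, a variance trend and 12 residual degrees of freedom was fitted over all of them, two-sided, with Benjamini-Hochberg adjustment and calls at 0.05. The script was tested on simulated data. The number of arrays limits the precision.

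The 10 genes, the lists of other starch, clock and marker genes, and the tests were chosen with earlier results of these data known. All 10 genes are named, as are the members of the starch and clock lists called in a contrast described, and for each of the 10 genes the closest profile of 3 ranked. Symbols were checked by locus against a RefSeq gene table (TAIR10.1), where 10 of 10 matched. Replicate letters did not pair samples, and were not used as a block: deviations of arrays with the same letter correlated at -0.60 to 0.24, above 0.1 in 5 of 45 pairs. The alternatives tried are given with their effect at the end. No sequences are shown.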

Additional observations from a re-analysis of the deposited data

Results flagged for a closer look

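The OE minus Col-0 difference in the wound response at 6 h was called for all 10 genes (limma interaction term, as labelled). It was called for 16 of 32 other starch genes too, and for 23.3% of all probe sets. For the 10 genes it was -5.76 for DPE1, -5.72 for PHS2, -5.02 for PHS1, -4.50 for AMY3, -4.04 for SEX1, -3.96 for DPE2, -3.87 for SEX4, -1.77 for BAM5, -1.17 for LSF1 and 2.15 for BAM3 on the log2 scale, and these values are a description because the genes were chosen on these arrays. Of other breakdown genes, ISA3 gave -4.55, LSF2 -1.79, MEX1 -1.53 and GLT1 -1.27, while BAM9 gave 4.58, BAM1 2.29, AMY2 1.21 and BAM2 0.93. Of synthesis genes, SS4 gave -2.62, ISA1 -2.04, PTST1 -1.96, ISA2 -1.94, APL2 -1.88, PGM1 -1.55 and SS1 -0.54, while GBSS1 gave 4.19. The limma adjusted p of these 16 lay between 0.00924 for BAM9 and PTST1 and 0.0433 for SS1, and the count of 16 was 9, 8, 7 and 7 without OE control A, OE control B, OE 6 h A and OE 6 h B. OE control A and B and OE 6 h C, which correlated best with each other, stand on opposite sides of this difference.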

How the results depend on the processing

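The log2 difference of each of the 10 genes kept its sign wherever it was called, in all 2550 refits of the 9 comparisons. Of these refits 2300 stayed on their side of the threshold, 165 lost a call and 85 gained one, and the cause was not tested except where fewer arrays were fitted. The share of all probe sets called moved too. For OE against Col-0, leaving out the arrays lettered C took it from 10.4% to 35.3% in the controls and from 11.1% to 32.2% at 1 h. At 6 h it went from 1.06% to 34.1%, and over all treatments from 4.84% to 15.7%. Shares are not given for the other settings or for 1 array left out, so nothing particular to the starch genes is read from those counts. Counts of the 10 genes called changed as follows. At 1 h in Col-0 the count of 0 was 1 with only the 9 Col-0 arrays fitted and 2 without the OE arrays lettered C. At 6 h in Col-0 it was 4 to 10 with 1 array left out. In the controls the 6 of OE against Col-0 were 10 with array weights, 3 with no filter, 3 with a replicate block and 0 to 8 with 1 array left out. At 1 h the count of 1 was 6 with array weights, 4 in a model of only the arrays compared, 8 without the arrays lettered C, 0 with no filter, no variance trend, quantile normalization or a replicate block, and 0 to 4 with 1 array left out. At 6 h the count of 2 was 10 with array weights or without the arrays lettered C, 0 after subtraction of array medians, with no filter, no trend, only the arrays compared or a replicate block, and 0 to 9 with 1 array left out. Over all treatments the 0 was 4 with weights, 6 without the arrays lettered C and 0 to 1 with 1 array left out. The difference of the wound response at 1 h, 0, was 5 with weights and 7 without the arrays lettered C. For the 32 other starch genes, the 12 at 6 h in Col-0 were 20 with only Col-0 fitted and without the arrays lettered C, 19 with weights or only the arrays compared, 6 with a replicate block and 3 to 18 with 1 array left out. Their 0 at 1 h in Col-0 was 1 with weights and 3 without the arrays lettered C. Against Col-0 the 7 in the controls were 22 with weights or without the arrays lettered C, 4 with no filter or a replicate block and 0 to 16 with 1 array left out. The 3 at 1 h were 11 with weights, 12 without the arrays lettered C and 0 to 7 with 1 array left out. The 0 at 6 h was 22 with weights, 23 without the arrays lettered C, 1 with medians subtracted, a filter at the 60th percentile, log2 after addition of 16 or quantile normalization, and 0 to 21 with 1 array left out. The 1 over all treatments was 2 with medians subtracted, 9 with weights, 8 without the arrays lettered C, 0 with no treatment term and 1 to 3 with 1 array left out. The differences of the wound response, 0 at 1 h and 16 at 6 h, were 10 and 25 with weights, 10 and 23 without the arrays lettered C, 0 to 3 and 7 to 23 with 1 array left out, and 10 at 6 h with only the arrays compared. Fewer arrays were fitted in each model that left arrays out. Letters did not pair the samples (3 of 18 arrays correlated best with their own letter). A search for promoter motifs and a comparison of further probe sets of a gene were not run, since no promoter table was used here and each of the 10 genes had 1 probe set.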
